A study of Bos taurus with 6 samples.

Results

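Eph receptors and their ligands, the ephrins, were followed in RNA of cultured Holstein mammary epithelial cells, either wild type or labelled as a knockout of KLF6, a zinc-finger transcription factor. The 10 genes described were fixed by symbol: the receptor genes EPHA1, EPHA2, EPHA4, EPHB2, EPHB3, EPHB4 and EPHB6 and the ephrin genes EFNA1, EFNB1 and EFNB2. All 10 were found among the 28200 rows of the count table, each on 1 row and each marked as protein coding. The cells were primary bovine cells from mammary tissue, either wild type or carrying a KLF6 knockout made with CRISPR/Cas9, with 3 libraries per genotype. No further agent is named for either genotype, and the labels leave unsaid whether the knockout cells were 1 clone and whether each library had a culture of its own. The p-values thus speak only of the spread among these 6 libraries, part or all of which may be technical.

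Eph receptors are receptor tyrosine kinases that bind ephrins on the surface of a neighbouring cell, so that signals pass mainly where cells touch. Ephrins of the A class are held in the membrane by a lipid anchor and mostly bind A-class receptors, whereas ephrins of the B class span the membrane and mostly bind B-class receptors. Signals run in both directions, into the receptor cell and into the ephrin cell, and act largely on the actin cytoskeleton, adhesion and the sorting of cells. In the mammary gland EPHA2 is known for its part in branching of the ducts, and EPHB4 with its preferred ligand ephrin-B2 for expression that follows the development of the gland.

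Total counts lay between 17512892 and 18724879 per library. Wild-type replicate 3 stood apart: its counts differed from those of the other wild-type libraries with 9.07 and 9.22 times the variance that counting alone gives, against 2.27 to 2.96 times for the remaining pairs of one genotype. It was the highest wild-type library for 6 of the 8 genes of the set that could be tested. KLF6 itself had 503, 496 and 558 CPM (reads per 1e+06 reads of a library, after TMM scaling) in wild type and 224, 230 and 217 CPM in knockout libraries, all of them lower. The KLF6 transcript was thus still read in the knockout libraries (12039 counts over all 3, against 28367 in wild type), 2.32-fold lower, and counts per gene do not show whether those reads carry the edit. The epithelial label was checked against 11 markers, all of which were read and tested. Of these 1 rose, 7 fell and 3 (EPCAM, CDH1 and OCLN) did not pass the edgeR test, where 74.6% of all tested genes were called. EPCAM (165 ± 10.6 CPM in wild type, 167 ± 5.35 in knockout, SD, n = 3) and CDH1 (306 ± 6.26 and 290 ± 5.51 CPM) differed by 0.01 and -0.08 on the log2 scale. CDH1 passed under 3 of 15 alternatives, namely with the median of chromosome 18 taken out (log2 -0.40, edgeR adjusted p = 1.48e-07), with scaling by library size only (-0.13, 0.0113) and without wild-type replicate 3 (-0.09, 0.0289). OCLN, a tight junction gene (-0.01), passed with the median of chromosome 20 taken out (-0.49, edgeR adjusted p = 2.75e-07). KRT8 and KRT5 fell, from 7560 ± 527 to 2450 ± 62.2 CPM and from 4680 ± 67.3 to 2020 ± 34.1 CPM by the edgeR test (adjusted p under the threshold of 0.05), whereas KRT14, a basal keratin, rose from 304 ± 24.0 to 515 ± 9.91 CPM (log2 0.76 ± 0.05, edgeR adjusted p = 2.4e-10). The summed level of the 11 markers, most of it KRT8, KRT18 and KRT5, was 16600 to 17800 CPM in wild type and 6730 to 6940 CPM in knockout libraries.

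EPHB2 RNA more than doubled in knockout libraries, EFNA1 RNA fell to well under its wild-type level, and EPHA1 and EPHB3 RNA fell by smaller amounts. EFNB1 and EPHB4 rose by 1.10-fold and 1.09-fold, EPHA2 and EPHA4 did not pass the test, EFNB2 was almost unread and EPHB6 was not read. Of the 10 genes, 8 had enough counts to be tested, and of these 3 rose and 3 fell by edgeR's quasi-likelihood test with Benjamini-Hochberg adjustment over all 13390 tested genes. Among all tested genes 74.6% were called (37.1% rose and 37.6% fell), so the share called in the family is near that among all genes. At least 1.5-fold changes were found for 1 gene that rose and 2 that fell, where 41.5% of all tested genes passed that bound (20.1% rose and 21.5% fell). EPHB3 only just met the bound (log2 -0.589). It met it with scaling by library size only (-0.639), but not with DESeq2 size factors (-0.575) or with its chromosome median taken out (-0.481). After TMM scaling the libraries of the genotypes did not overlap for 7 of the 8 genes, and for 76.2% of all tested genes. Of the 7, EFNB1 and EPHB4 were barely apart. Their lowest knockout libraries had 278 and 129 CPM, and their highest wild-type libraries 277 and 129 CPM. The median log2 fold change was -0.02 over the 8 genes and -0.01 over all tested genes. Since RNA was taken from whole cultures, a change in the share of cells that express a gene and a change in RNA per cell cannot be told apart.

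Of the A-class receptors, EPHA1, the founding receptor of the family and named after a liver carcinoma line, had 278, 269 and 287 CPM in wild-type libraries. The knockout libraries had 198, 186 and 190 CPM. All 3 knockout libraries lay below all 3 wild-type libraries, and the mean went from 278 ± 8.94 to 191 ± 6.14 CPM. The log2 fold change was -0.54 ± 0.05 (SE), a fall of 1.45-fold, with an edgeR adjusted p = 4.54e-09. EPHA1 lies on chromosome 4 (106788865 to 106804335, minus strand, in coordinates of the count table, whose build the labels do not name), where the median log2 change of the other tested genes was 0.07.

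EPHA2, the A-class receptor best known from epithelial cells and their tumours, was the most counted gene of the set, with 340, 345 and 355 CPM in wild type and 328, 322 and 325 CPM in knockout libraries. The genotypes did not overlap, yet the distance between them was small. The log2 difference was -0.09 (95% interval -0.18 to -0.01), with an edgeR adjusted p = 0.0517, so EPHA2 did not pass the test. EPHA2 was past the threshold under 4 of 15 alternatives, among them scaling by library size alone (-0.14, adjusted p = 0.00484) and limma-voom (-0.09, adjusted p = 0.0419).

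EPHA4, a receptor that binds ephrins of both classes, was read at 23.1, 22.5 and 21.9 CPM in wild type and 22.7, 22.8 and 24.4 CPM in knockout libraries. These ranges overlapped. The log2 difference was 0.05 with a 95% interval of -0.11 to 0.22, and the edgeR adjusted p was 0.532.

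**Figure D1:**
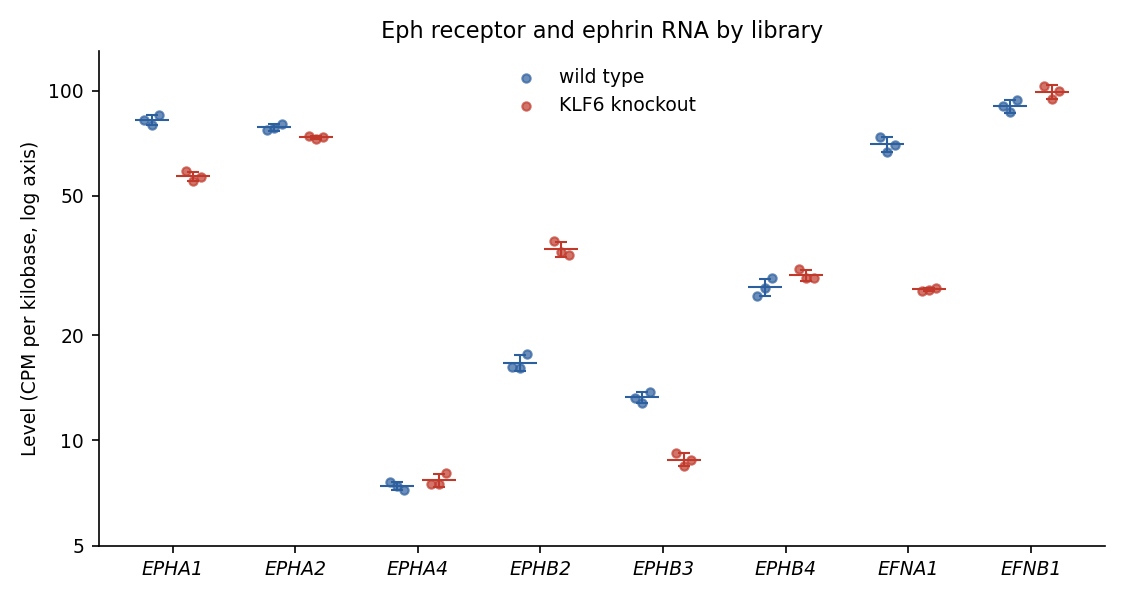
Level of the 8 tested Eph receptor and ephrin genes as CPM per kilobase of gene length on a log axis, with a point for each of the 3 wild-type (blue) and 3 KLF6 knockout (red) libraries and a bar for the mean with its SD. EPHB2 sits higher and EFNA1, EPHA1 and EPHB3 lower in all knockout libraries, while EPHA4 overlaps.

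The B-class receptors EPHB2 and EPHB3 moved in opposite directions. EPHB2, a receptor known for guiding axons and for placing epithelial cells along the intestinal crypt, had 63.0, 62.5 and 68.6 CPM in wild type. Knockout libraries had 144, 134 and 132 CPM, so that the lowest of them was well above the highest wild-type library. The log2 fold change was 1.08 ± 0.05 (SE), a rise of 2.11-fold from 64.7 ± 3.36 to 137 ± 6.72 CPM (edgeR adjusted p = 4.05e-12), and 80.0% of all tested genes changed by less in either direction.

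EPHB3, which shares much of its role in the intestinal epithelium with EPHB2, stood at 56.2, 54.4 and 58.4 CPM in wild type and at 39.0, 35.9 and 37.4 CPM in knockout libraries. The genotypes were again apart, here with knockout below. The fall was 1.5-fold (log2 -0.59 ± 0.06, edgeR adjusted p = 1.09e-07). EPHB2 lies on chromosome 2 (129898024 to 130038309) and EPHB3 on chromosome 1 (82610922 to 82631983), with chromosome medians of 0.03 and -0.11. The ratio of EPHB2 to EPHB3 RNA within a library, per length, was 1.25 ± 0.03 in wild type and 3.99 ± 0.11 in knockout libraries.

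EPHB4, the receptor that prefers ephrin-B2, had 115, 121 and 129 CPM in wild type and 137, 129 and 129 CPM in knockout libraries. The lowest knockout and the highest wild-type library were equal after rounding. The log2 fold change of 0.12 ± 0.05 (95% interval 0.01 to 0.23) passed the edgeR test with an adjusted p = 0.0462. The call was lost under 8 of 15 alternatives. Without knockout replicate 1, 2 or 3 the values were 0.09 (adjusted p = 0.173), 0.13 (0.0659) and 0.13 (0.0643), and without wild-type replicate 1 or 2 they were 0.08 (0.183) and 0.11 (0.0921). With the median change of chromosome 25 (0.08) taken out, the value was 0.04 (edgeR adjusted p = 0.505), and scaled by library size alone it was 0.07 (0.244). With the replicate number as a block the adjusted p was 0.0652.

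EPHB6, a receptor without kinase activity, had 0 counts in all 6 libraries. A count of 0 allows up to 3 counts, which is 0.161 to 0.172 CPM depending on the library and covers counting error only. No fold is given for it.

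Among the ephrins, EFNA1, the A-class ligand that binds EPHA2 with high affinity, had the largest fall of the 10 genes. Wild-type libraries had 114, 103 and 108 CPM, and knockout libraries 41.4, 41.6 and 42.1 CPM. The 3 knockout libraries were close together and far below every wild-type library. The mean fell 2.59-fold, from 108 ± 5.66 to 41.7 ± 0.391 CPM, with a log2 fold change of -1.37 ± 0.06 and an edgeR adjusted p = 1.69e-13. A smaller change in either direction was found for 86.3% of all tested genes.

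EFNB1, a B-class ephrin encoded on the X chromosome, was read at 265, 255 and 277 CPM in wild type and 304, 278 and 293 CPM in knockout libraries. Knockout replicate 2 lay just above wild-type replicate 3, so the genotypes were barely apart. The rise was 1.10-fold (log2 0.14 ± 0.05, edgeR adjusted p = 0.0167). The call was lost when knockout replicate 1 (0.11, adjusted p = 0.0981), knockout replicate 3 (0.14, 0.0535) or wild-type replicate 2 (0.11, 0.0794) was left out, and when libraries were scaled by size alone (0.09, 0.113).

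EFNB2, the preferred ligand of EPHB4, had 2 reads over the 3 knockout libraries and 1 read over the 3 wild-type libraries. Both lie under the floor of 3 counts, so no fold is given. Its receptor EPHB4 was at 122 ± 6.82 CPM in the same wild-type libraries.

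**Figure D2:**
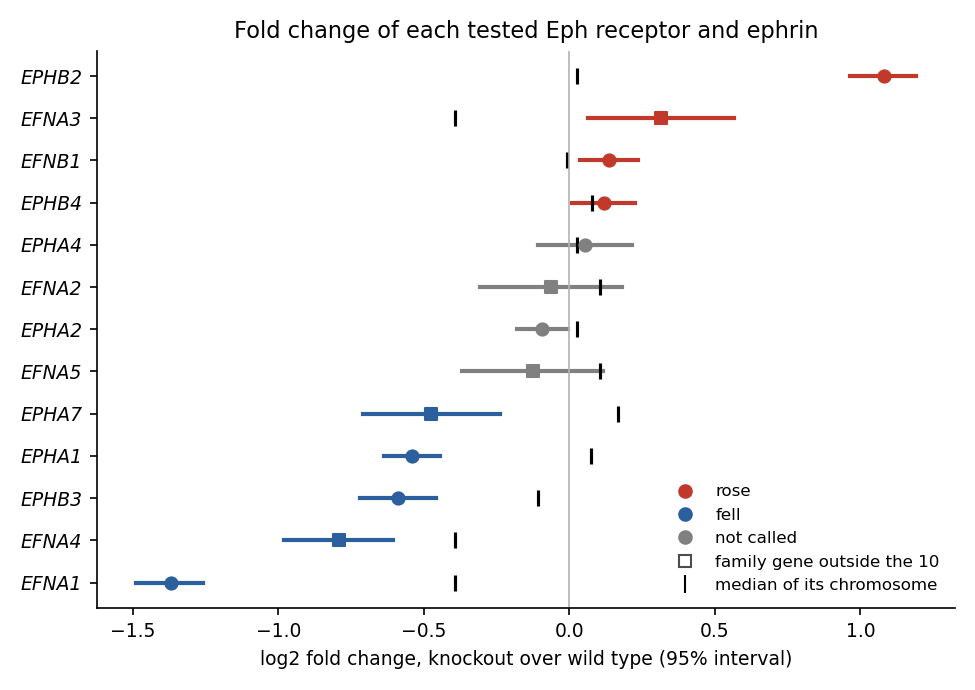
Log2 fold change of KLF6 knockout over wild type with its 95% interval for the 13 tested family genes, circles for the 8 of the set and squares for 5 others, red for genes that rose, blue for those that fell and grey for those not called. The black tick is the median of the other tested genes on the same chromosome; EPHB2 and EFNA1 lie farthest from 0, and EPHB4 lies next to its chromosome's median.

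The rest of the family is small in these cells. Another 12 Eph receptor or ephrin symbols stand in the count table, of which 6 (EPHA3, EPHA5, EPHA6, EPHA8, EPHA10 and EPHB1) had 0 counts in all libraries. Of the 5 that could be tested, EFNA3 rose, EPHA7 and EFNA4 fell, and EFNA2 and EFNA5 did not pass the test. EFNA4, an A-class ephrin, had 26.3, 24.8 and 22.5 CPM in wild type and 13.3, 14.4 and 14.7 CPM in knockout libraries. These groups were well apart, with a log2 fold change of -0.79 ± 0.09 and an edgeR adjusted p = 2.19e-07. The receptor gene EPHA7 had 12.0, 14.4 and 14.9 CPM in wild type and 9.76, 10.7 and 9.31 CPM in knockout libraries (log2 -0.48 ± 0.11, edgeR adjusted p = 0.000964).

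EFNA2 (log2 -0.06, 95% interval -0.31 to 0.18) and EFNA5 (-0.13, -0.37 to 0.12) had overlapping libraries, at 10.2 ± 1.25 and 11.1 ± 1.40 CPM in wild type. EFNB3, the remaining B-class ephrin, was too rare for the test. It had 25 reads in knockout libraries (8, 11 and 6) against 4 in wild type (0, 3 and 1), a ratio of 6.36 with a 95% counting interval of 2.20 to 25.1. The authors' deposited table lists EFNB3 with a log2 fold change of 2.69.

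Levels were set against each other per kilobase of gene length. In wild type the order ran from EFNB1 (90.3 ± 3.81 CPM per kilobase) through EPHA1 (82.7 ± 2.66), EPHA2 (78.6 ± 1.75) and EFNA1 (70.0 ± 3.67) to EPHB4 (27.4 ± 1.54), EFNA4 (19.8 ± 1.56), EPHB2 (16.6 ± 0.865), EPHB3 (13.3 ± 0.475) and EPHA4 (7.41 ± 0.203). Of these neighbours in the order, EPHA1 and EPHA2 overlapped between libraries and the others did not. In knockout libraries the order was EFNB1 (99.2 ± 4.55), EPHA2 (73.7 ± 0.680), EPHA1 (56.9 ± 1.83), EPHB2 (35.2 ± 1.73), EPHB4 (29.7 ± 0.984), EFNA1 (27.0 ± 0.253), EFNA4 (11.4 ± 0.587), EPHB3 (8.82 ± 0.370) and EPHA4 (7.69 ± 0.311), and no neighbours among these overlapped. EPHB2 thus moved from below EPHB4 to above it, and EFNA1 from above EPHB4 to below it.

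Summed by class, the A-class ephrins were lower in every knockout library, mostly through EFNA1 and EFNA4. Their sum was 107, 98.7 and 100 CPM per kilobase in wild type and 50.4, 51.4 and 52.2 in knockout libraries, a ratio of 0.503. EFNA1 made up 68.5 ± 1.06% of that sum in wild type and 52.6 ± 0.501% in knockout libraries. A-class receptors summed to 173 ± 4.10 CPM per kilobase in wild type and 141 ± 2.33 in knockout libraries, with EPHA1 and EPHA2 together above 92% in all libraries. A-class receptor RNA per A-class ephrin RNA was 1.69 ± 0.0875 in wild type and 2.75 ± 0.0869 in knockout libraries.

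The B class went the other way. B-class receptors summed to 57.3 ± 2.73 CPM per kilobase in wild type and 73.7 ± 3.02 in knockout libraries, and the share of EPHB2 in that sum was 29.0 ± 0.307% and 47.7 ± 0.444%. The share of EPHB3 was 23.2 ± 0.616% in wild type and 12.0 ± 0.256% in knockout libraries, and that of EPHB4 was 47.8 ± 0.818% and 40.3 ± 0.314%. B-class ephrins, nearly all of them EFNB1, summed to 90.3 ± 3.8 and 99.4 ± 4.53 CPM per kilobase, and EFNB1 went from 46.9 ± 1.36% to 65.8 ± 1.27% of all ephrin RNA. None of these sums or shares overlapped between genotypes, and neither did the libraries for 76.2% of all tested genes. The B-class ephrin sums were barely apart, at 94.6 CPM per kilobase in knockout replicate 2 and 94.3 in wild-type replicate 3. All sums and shares are given as descriptions, and no test was run on them.

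**Figure D3:**
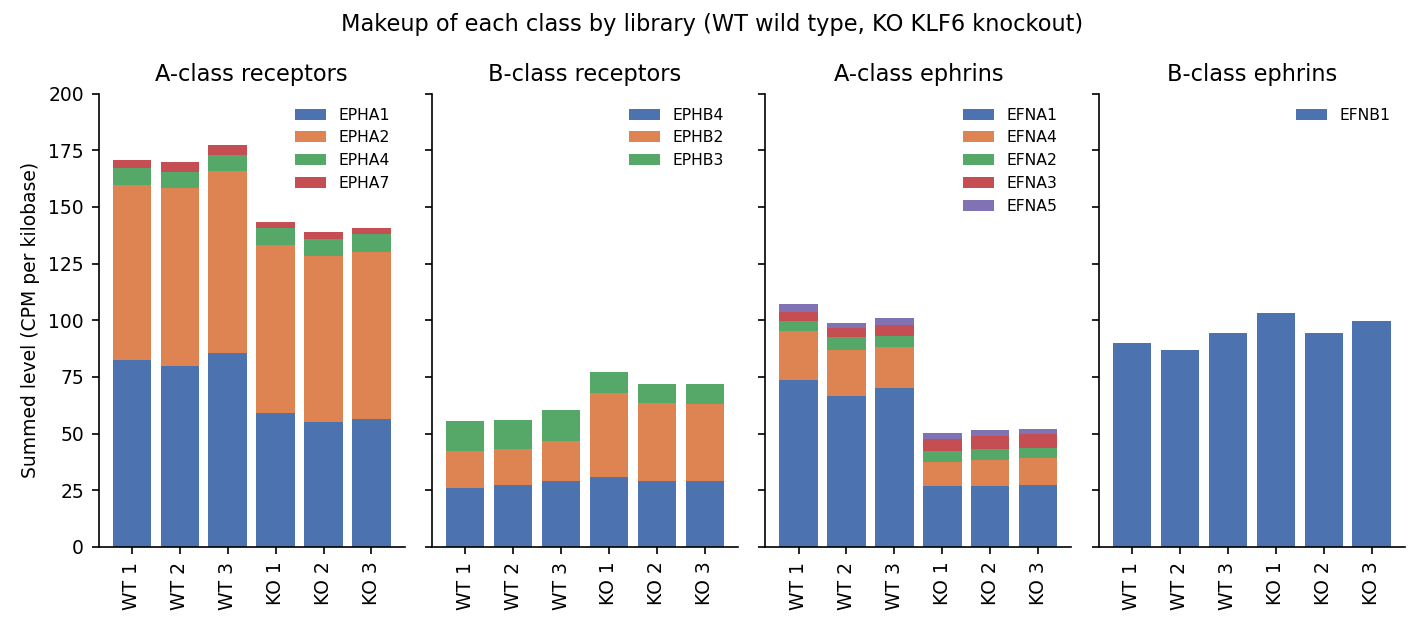
Summed level in CPM per kilobase of the A-class receptors, B-class receptors, A-class ephrins and B-class ephrins in each library, stacked by gene, for genes with more than 200 counts. The A-class ephrin bars of the knockout libraries are 50.4 to 52.2 high against 98.7 to 107 in wild type, and EPHB2 fills more of the B-class receptor bars.

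EFNA1, EFNA3 and EFNA4 lie side by side on chromosome 3, all on the minus strand, within 70.2 kb (EFNA1 at 15466566 to 15473164, EFNA3 at 15512373 to 15521191 and EFNA4 at 15532649 to 15536764). EFNA3 had 7.73, 7.39 and 8.96 CPM in wild type and 9.53, 9.84 and 10.6 CPM in knockout libraries. It was higher in every knockout library, while the genes on both sides of it fell. Its log2 fold change was 0.32 ± 0.12 (edgeR adjusted p = 0.0240), a call that was lost when knockout replicate 3 (0.27, adjusted p = 0.0882), wild-type replicate 1 (0.29, 0.0632) or wild-type replicate 2 (0.26, 0.0921) was left out, and when libraries were scaled by size alone (0.27, 0.0544).

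Tested genes of chromosome 3 had a median log2 change of -0.39. With that median taken out, EFNA1 was at -0.98 (edgeR adjusted p = 2.38e-11), EFNA4 at -0.40 (adjusted p = 0.000567) and EFNA3 at 0.71 (adjusted p = 3.63e-05). Within 100 kb on either side of the cluster, 17 other genes were tested, of which 13 fell and 2 rose, with a median of -0.67. The genes next to EFNA1, namely SLC50A1 and DPM3, fell (-0.72 ± 0.09 and -0.95 ± 0.09), while ADAM15, a membrane protease gene next to EFNA4, rose (1.18 ± 0.11), as did CKS1B, a cell cycle gene (0.74 ± 0.06). SHC1, an adaptor of tyrosine kinases that lies in the same stretch, fell (-0.67 ± 0.05). SLC50A1, DPM3 and ADAM15 were named as the nearest to EFNA1 and EFNA4, and CKS1B and SHC1 were picked from farther off in the stretch. All 5 passed the edgeR test at 0.05, but they were chosen after the values of the cluster were seen and do not stand for the stretch. Among genes not picked, MUC1 (-2.3 ± 0.12) and THBS3 (-2.0 ± 0.22) fell by more than EFNA1. KRTCAP2 (0.05 ± 0.05) and TRIM46 (-0.03 ± 0.20) were not called. How much of the fall of EFNA1 belongs to the chromosome-wide shift was not tested beyond the values given.

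**Figure D4:**
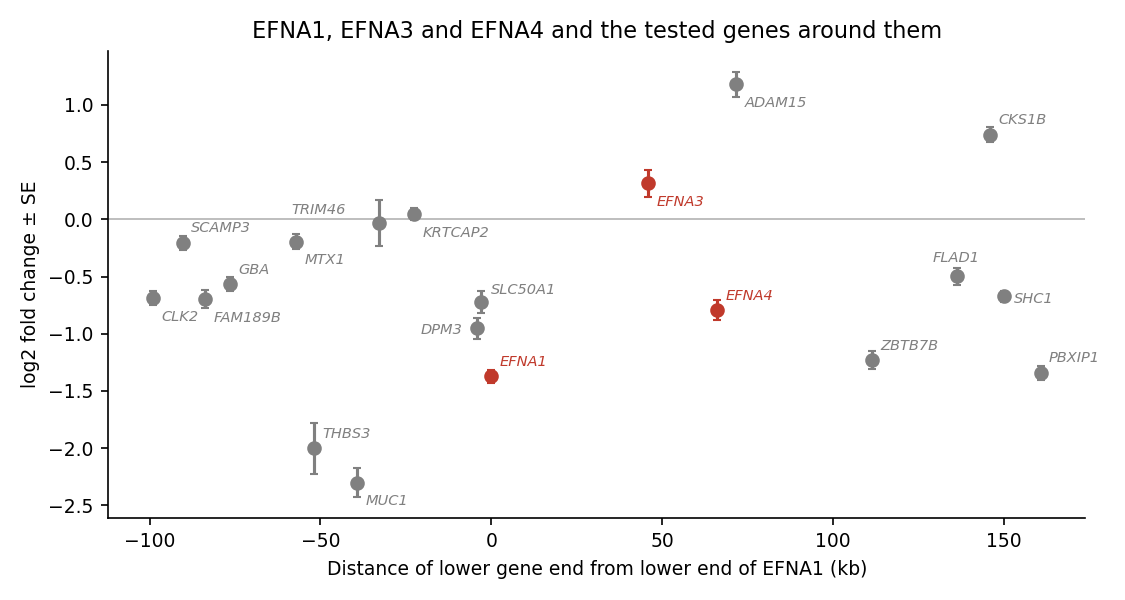
Log2 fold change with its SE of the 20 tested genes within 100 kb of the ephrin-A cluster, by distance in kb of their lower end from the lower end of EFNA1, ephrins in red. EFNA1 and EFNA4 lie below 0 with most of their neighbours, and EFNA3 and ADAM15 above.

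Genes known to act with or after Eph receptors were taken from 4 lists. Of 19 adaptors and scaffolds, 17 were tested, 6 rose and 9 fell, with a median log2 change of -0.32. GRB7, an adaptor of receptor tyrosine kinases, fell from 57.9 ± 5.66 to 8.56 ± 0.924 CPM, and RGS3, which binds the tail of B-class ephrins, fell from 10.7 ± 0.848 to 1.85 ± 0.290 CPM. The adaptor genes GRB10 (0.71 ± 0.08), GRB2 (0.65 ± 0.05) and NCK2 (0.47 ± 0.09) rose, whereas SHC1 (-0.67 ± 0.05) and CRK (-0.56 ± 0.05), also adaptor genes, fell. SDCBP, the PDZ protein syntenin, fell (-0.86 ± 0.05) and stood at -0.04 (edgeR adjusted p = 0.486) with the median of its chromosome 14 taken out.

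Of 18 small GTPases and their regulators, 15 were tested, 6 rose and 8 fell (median -0.16). The exchange factor genes TIAM1 (9.24 ± 0.584 to 3.35 ± 0.263 CPM), VAV3 (6.22 ± 0.619 to 2.72 ± 0.207 CPM) and ITSN2 (52.4 ± 0.372 to 23.6 ± 1.13 CPM) fell by more than 2-fold. CHN1, a Rac-inactivating protein used by EPHA4, rose from 1.41 ± 0.236 to 4.59 ± 1.58 CPM. The GTPase gene CDC42 and the exchange factor gene VAV2 rose by less (0.38 ± 0.05 and 0.31 ± 0.07).

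Of 12 kinases, 5 rose and 6 fell (median -0.08). FYN, a Src-family kinase, fell from 19.4 ± 0.666 to 0.262 ± 0.0885 CPM, that is from 1061 to 14 reads over 3 libraries. LYN, of the same family, had 603 reads in wild type and 1 in knockout libraries, a ratio of knockout to wild type of 0.00169 (95% counting interval 4.3e-05 to 0.00944). PAK1, which acts after Rac and CDC42, fell from 308 ± 16.6 to 98.3 ± 1.59 CPM. SRC (0.40 ± 0.06) and ABL2 (0.57 ± 0.15) rose. PIK3R1, a regulatory subunit of PI3-kinase, rose (0.33 ± 0.11, edgeR adjusted p = 0.0129), but not without knockout replicate 2 (0.30, adjusted p = 0.0507) or wild-type replicate 1 (0.22, adjusted p = 0.0757), and its sign turned with the median of chromosome 20 taken out (-0.14, adjusted p = 0.262).

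Of 14 phosphatases, proteases and turnover genes, 13 were tested, 4 rose and 9 fell (median -0.33). CBLB, a ubiquitin ligase, fell from 22.3 ± 1.51 to 5.76 ± 0.685 CPM, and the tyrosine phosphatase genes PTPN13, whose product acts on ephrin-B, and PTPRF fell (-1.42 ± 0.06 and -1.25 ± 0.07). PSEN2, a catalytic subunit of gamma-secretase, rose from 4.99 ± 0.0704 to 18.3 ± 0.751 CPM, ACP1, a small phosphatase recruited by Eph receptors, rose from 41.6 ± 3.19 to 88.5 ± 5.10 CPM, and PTPN11 rose (0.40 ± 0.06). In the lists on adaptors, regulators, kinases and turnover each call stands beside the 74.6% called among all tested genes. All values called here had an edgeR adjusted p under 0.05, with log2 fold changes ± SE over 3 libraries per genotype.

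**Figure D5:**
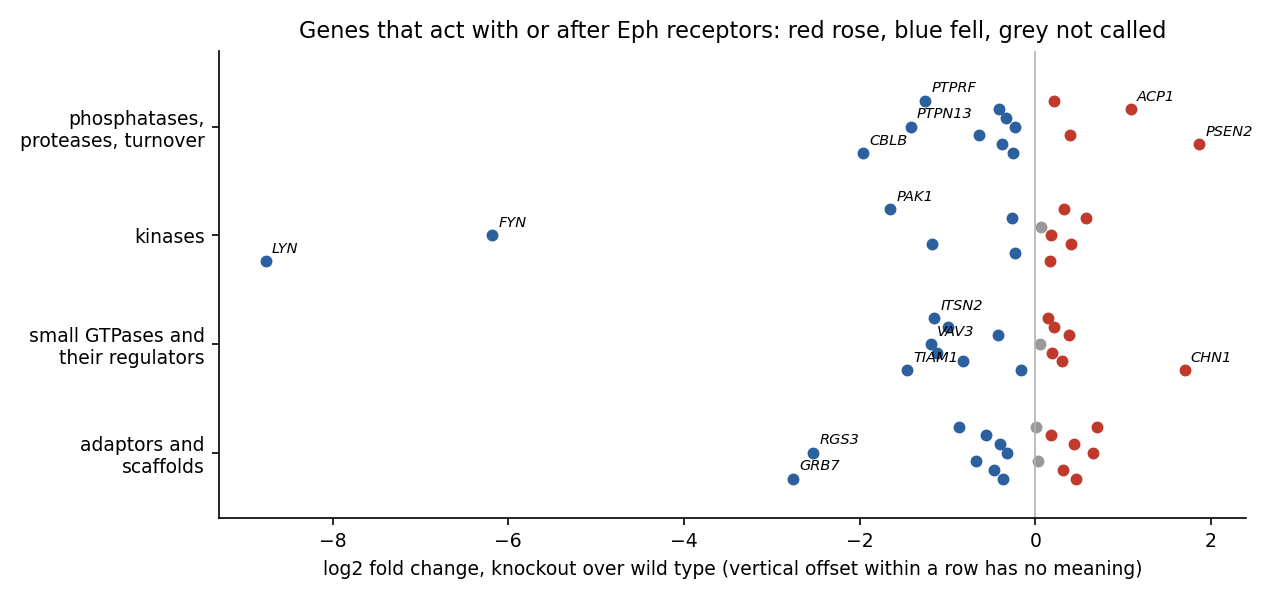
Log2 fold change of KLF6 knockout over wild type for the tested genes of 4 lists of partners of Eph receptors, 1 point per gene, red for genes that rose, blue for those that fell and grey for those not called. FYN and LYN lie far to the left of all others, and the fitted value of LYN rests on 1 read in knockout libraries.

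Some of the 10 genes are also read in other cell types, since EPHB4 and EFNB2 mark veins and arteries. Of 12 endothelial markers, 5 had enough counts to be tested, of which 3 rose and 2 fell, and their summed level was 14.3 to 16.3 CPM in wild type and 53.2 to 56.0 CPM in knockout libraries. PECAM1 (0.219 ± 0.0941 to 31.3 ± 0.886 CPM) and ERG (9.97 ± 0.288 to 21.3 ± 0.944 CPM) rose, VWF fell (3.57 ± 0.475 to 0.242 ± 0.0324 CPM), and KDR, CLDN5 and SOX17 were at 0 in all libraries. Of 11 fibroblast markers, 7 were tested, 1 rose and 4 fell, and their sum was 1050 to 1250 CPM in wild type and 246 to 259 CPM in knockout libraries, with TCF21 at 0. Of 8 pericyte and smooth muscle markers, 5 were tested, 1 rose and 4 fell (144 to 163 CPM in wild type and 68.9 to 69.7 CPM in knockout, with RGS5, DES and KCNJ8 at 0).

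Of 9 leukocyte markers, 4 were tested, 2 rose and 1 fell (57.0 to 62.0 CPM in wild type and 153 to 155 CPM in knockout, with PTPRC and LYZ at 0). Of 7 neural and glial markers, 2 were tested and both rose (210 to 242 CPM in wild type and 566 to 593 CPM in knockout, with SOX10 at 0). These marker counts stand beside the same 74.6% called among all tested genes. The part of these markers in the changes of EPHB2 and EFNA1 was not tested.

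Genes whose 6 centred log2 values lay nearest to those of EPHB2 were POLD1 (root mean square distance 0.0186), TMEM120B (0.0262) and ILVBL (0.0319). Near to EFNA1 by the same measure were ABHD14B (0.0175) and NPC2 (0.0348). The likeness is over 6 libraries and 13389 other genes, and with 2 genotypes it reflects mainly a like difference between them.

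The authors' deposited table lists EPHA1 (-0.53), EPHB2 (1.09), EPHB3 (-0.58), EFNA1 (-1.36) and EFNB1 (0.15) with log2 fold changes in the same direction as those above, and EPHA7 (-0.46) and EFNA4 (-0.78) likewise. EPHA2, EPHA4, EPHB4 and EFNA3 are not among the 9532 genes of the authors' deposited table.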

How the data were processed

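Libraries of 3 KLF6 knockout and 3 wild-type samples were made with the Ion Total RNA-Seq kit, per the labels' protocols. The authors deposited raw counts per gene. HISAT2 2.0.5 and featureCounts 1.5.0-p3 are named in the submitters' processing notes, and neither build, annotation nor strand setting is named there. Symbols, coordinates and gene lengths come from the count table. The authors' deposited table of their own comparison gives log2 fold changes and adjusted p-values, with a test that is not stated.

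Counts were analysed with edgeR 4.0.16 (R 4.3.3): TMM scaling, filterByExpr (minimum count 10, minimum total 15), robust quasi-likelihood test, Benjamini-Hochberg adjustment over 13390 genes at 0.05. SEs were worked back from the F statistic, and intervals are at 95%. CPM divided by gene length in kilobases compares genes. On simulated data with 13390 genes this fit called 27 of 50 genes changed 1.25-fold, 47 of 50 changed 2-fold and 10 of 13021 unchanged genes. There only 200 genes were changed, and all genes shared 1 biological coefficient of variation (0.0558). In the real libraries 74.6% of genes were called and wild-type replicate 3 had a larger spread. The simulated counts are thus not error rates of the real comparison. Alternatives used DESeq2 1.42.0, limma 3.58.1, other scalings and filters, the replicate number as a block, chromosome medians and each library left out.

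The 10 genes and all lists were chosen with earlier results of these data known. Named were all family genes, KLF6, up to 3 called genes per direction with the largest change in each signalling list, the 3 genes nearest in pattern to the family genes of the set with the largest rise and fall, and markers. Some genes that these rules name are not reported here. In the file's coordinates no other row with counts overlaps a family gene, apart from a microRNA with 8 counts at EPHA2.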

Additional observations from a re-analysis of the deposited data

How the results depend on the processing

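EPHA1, EPHB2, EPHB3, EFNA1 and EPHA4 kept their call and direction under all 15 alternatives (EPHA1 -0.61 to -0.52, EPHB2 1.03 to 1.12, EPHB3 -0.64 to -0.48, EFNA1 -1.42 to -0.98, EPHA4 0.01 to 0.08 without a call), and without wild-type replicate 3 the same count of 6 of the 8 genes was called. The number of genes of the set that rose was 3, and it was 1 with scaling by library size only, 1 with a bound of 1.5-fold, and 1 to 3 with a library left out (1 without knockout replicate 1, knockout replicate 3 or wild-type replicate 2). The number that fell was 3, and 2 to 4 under the alternatives. Over 13 family genes, 175 of 195 values kept their call, 16 lost it, 4 (all EPHA2) gained one and 0 called values reversed, while EFNA2, which was never called, turned from -0.06 to 0.03 without wild-type replicate 2. Over 44 other named genes, 652 of 660 kept their call, 3 lost it, 4 (CDH1 and OCLN) gained one, 7 values of EPCAM and OCLN turned sign without a call, and PIK3R1 reversed with the chromosome median taken out (-0.14). Library-size scaling moved the median of all genes by -0.05. The labels state no pairing of the libraries by replicate number. Same-numbered libraries had correlations of deviations of -0.0372, 0.0675 and -0.0197, and not every library correlated best with its own number. No shared effect of the number was thus seen, but such correlations cannot show how the libraries were handled. With the replicate block 2 genes of the set rose and 3 fell, and 4938 and 4956 of all genes against 4963 and 5028. EFNB2 and EFNB3 had too few counts for the main fit and EPHB6 had 0 counts. Whether deeper libraries would change this was not tested.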
